A study of Rattus norvegicus with 12 samples.

Results

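Eosinophils, basophils and mast cells are granule-bearing leukocytes whose presence in bulk tissue can be read from a small set of transcripts. A set of 10 such genes was followed through hematomas of healing and non-healing femoral defects of the rat: Epx, Prg2, Prg3 and Siglec5 for eosinophils, Ms4a2 and Fcer1a for the high-affinity IgE receptor, and Prss34, Cpa3, Tpsab1 and Tpsb2 for basophil and mast cell proteases. The genes were chosen by name for their known cell types, with earlier results of these data known. All 10 were found, each with 1 RefSeq transcript, among 17379 features in every library. Estimated reads and TPM were summed over those transcripts in each of the 12 libraries.

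The animals were male SAS Fischer rats weighing 200 to 225 g. Hematoma was taken from a femoral defect of 0.5 mm (normal, 3 libraries), 1.5 mm (delayed, 3 libraries) or 5.0 mm (nonunion, 3 libraries), which serve as models of normal healing, delayed healing and non-healing. The piece of healthy femur taken out when 5.0 mm defects were made formed the reference group, preOP, with 3 libraries and treatment given as none. All 4 groups were of that strain, and the labels name no transgene, deletion or drug. How long after surgery the hematomas were taken is not given in the sources used here. The labels do not say whether libraries of a group came from separate animals, so every p-value measures the spread between these samples, which may be technical.

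Eosinophils store cationic proteins in their granules: Epx encodes eosinophil peroxidase, Prg2 encodes major basic protein and Prg3 encodes its homolog. Much of this RNA is made while the cells mature in bone marrow. Siglec5 is the rat gene symbol of a sialic-acid-binding receptor family member. The mouse gene of that symbol encodes Siglec-F, a surface marker of eosinophils that other myeloid cells, such as alveolar macrophages, also carry. Basophils and mast cells bind IgE through a receptor whose alpha chain is Fcer1a and whose beta chain is Ms4a2. Their granules hold proteases: carboxypeptidase A3 (Cpa3), the tryptases (Tpsab1 and Tpsb2) and, in mouse basophils, Prss34.

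Totals ran from 16808993 to 24325162 estimated reads per library. Library nonunion 2 stood apart, with 72.24% of its reads on ribosomal RNA. The 3 normal files differed in form from the other 9. Only 16.82% to 18.1% of their read values were written with decimals, against 100% in the rest. Effective lengths fell short of transcript lengths by a median of 157.2 to 191.6 bases in them and by 194.3 to 254.6 bases in the rest. A difference in handling of the normal libraries and the effect of the 0.5 mm defect therefore cannot be told apart. Erythroid markers summed to 110784 to 188147 CPM in preOP and to 879 to 19492 CPM in the hematomas. Here and below, CPM is reads per 1e6 after TMM scaling of the libraries.

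The promoters of these genes are shown because several members moved together. RefSeq gives, on the rat assembly GRCr8, an entry for 8 of the 10 genes, all but Prg2 and Ms4a2. The 250 bases before the start are printed for 3 eosinophil genes and 2 protease genes, 5′ to 3′ on the strand of the gene: Epx (chr10:73175181-73175430, minus strand), Prg3 (chr3:90478904-90479153, plus), Siglec5 (chr1:102904656-102904905, plus), Prss34 (chr10:14820197-14820446, plus) and Cpa3 (chr2:104673238-104673487, minus). Capitals mark a GATA-factor motif, which is AGATAA on either strand or, likewise, TGATAA.
Epx: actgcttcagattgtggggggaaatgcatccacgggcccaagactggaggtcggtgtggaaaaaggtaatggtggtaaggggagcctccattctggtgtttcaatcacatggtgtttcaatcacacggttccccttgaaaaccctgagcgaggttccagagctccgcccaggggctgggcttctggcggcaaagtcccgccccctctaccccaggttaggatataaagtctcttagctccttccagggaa
Prg3: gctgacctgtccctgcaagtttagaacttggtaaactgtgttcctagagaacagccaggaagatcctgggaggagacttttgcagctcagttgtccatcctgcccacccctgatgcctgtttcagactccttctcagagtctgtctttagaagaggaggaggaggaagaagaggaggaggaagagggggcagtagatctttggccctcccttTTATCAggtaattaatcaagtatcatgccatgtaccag
Siglec5: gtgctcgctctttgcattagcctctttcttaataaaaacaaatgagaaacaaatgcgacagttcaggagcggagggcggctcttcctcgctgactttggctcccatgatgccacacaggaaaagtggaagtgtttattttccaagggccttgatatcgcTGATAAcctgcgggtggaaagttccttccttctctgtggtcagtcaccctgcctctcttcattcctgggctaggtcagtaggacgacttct
Prss34: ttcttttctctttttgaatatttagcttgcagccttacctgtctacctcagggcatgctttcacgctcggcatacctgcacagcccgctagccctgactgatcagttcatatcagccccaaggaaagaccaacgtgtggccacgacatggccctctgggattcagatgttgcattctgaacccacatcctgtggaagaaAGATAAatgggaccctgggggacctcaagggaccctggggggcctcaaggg
Cpa3: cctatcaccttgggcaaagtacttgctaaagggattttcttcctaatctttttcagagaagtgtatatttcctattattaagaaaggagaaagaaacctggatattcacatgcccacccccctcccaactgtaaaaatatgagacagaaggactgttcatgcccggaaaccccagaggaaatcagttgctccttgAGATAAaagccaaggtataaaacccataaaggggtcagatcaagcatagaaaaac
The GATA letters stood in 5 of 8 promoters, against 16.9% of all 33469 rat promoters of the same length. The outermost base of the motif stood 38 bases (Prg3), 91 bases (Siglec5), 93 bases (Fcer1a), 51 bases (Prss34) and 55 bases (Cpa3) before the start. None was in the printed Epx window, nor in those of Tpsab1 and Tpsb2. The letters TTNNGNAA (a C/EBP motif) stood in 4 of 8 (37.2% of all promoters), GAGGAA (a PU.1 motif) in 4 of 8 (23.3%), and an E-box, either CATGTG on any strand or else CACGTG, in 4 of 8 (17.1%), each searched on both strands. Some of these letters can overlap within a promoter, and a match describes the sequence only. Prg2 and Prg3 are neighbours on chromosome 3 with 0 annotated genes between them, and Tpsab1 and Tpsb2 are neighbours on chromosome 10, with Prss34 nearby, 5 genes from Tpsb2.

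**Figure D1:**
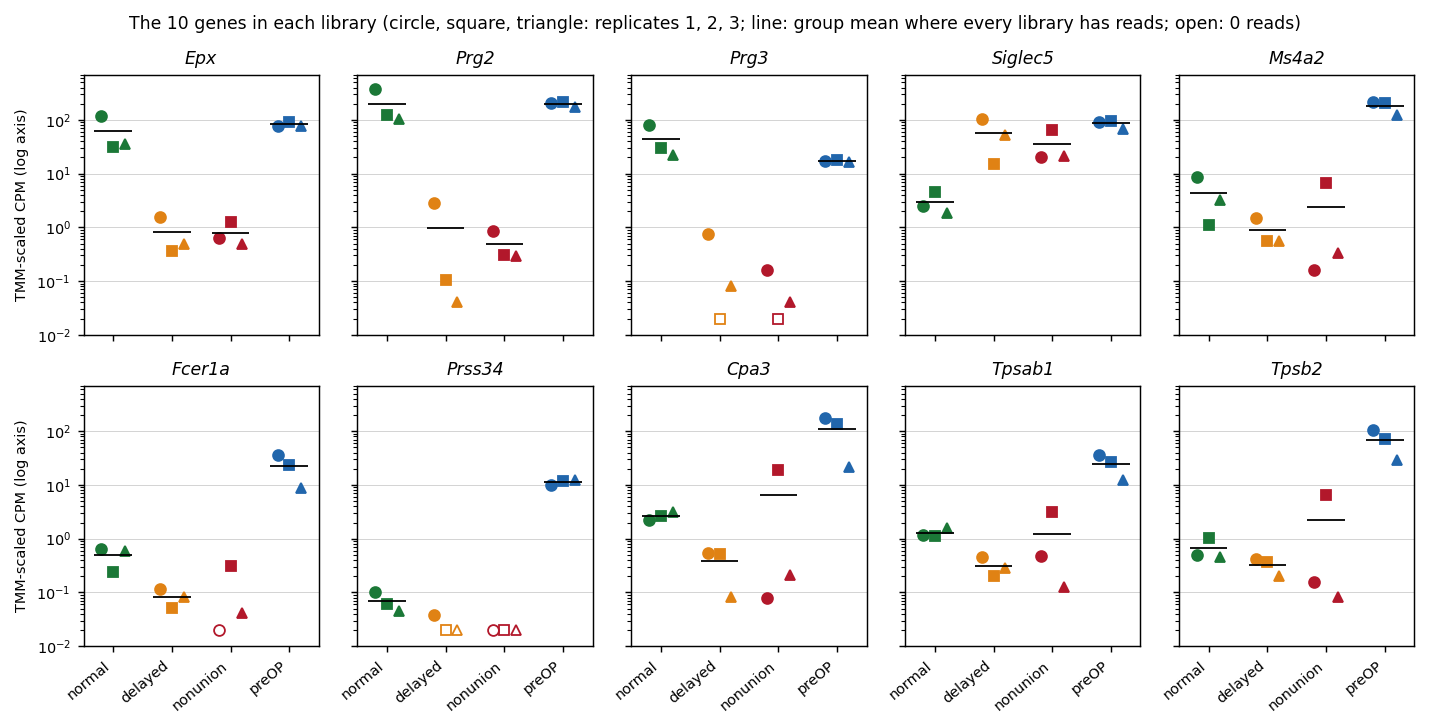
TMM-scaled CPM (log axis) of the 10 genes in each of the 12 libraries, 3 per group; the shape gives the replicate, a line the group mean where every library has reads, and an open symbol 0 reads placed at the axis foot. Epx, Prg2 and Prg3 are high in normal hematoma and preOP femur, Siglec5 is lowest in normal, and the IgE receptor and protease genes are high only in preOP.

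Eosinophil granule transcripts were abundant in normal hematomas and in preOP femur and close to 0 in delayed and nonunion hematomas. Prg2 was at 370, 125 and 102 CPM in normal 1, 2 and 3. It was at 2.80, 0.103 and 0.0403 CPM in delayed, and at 0.870, 0.308 and 0.290 CPM in nonunion. In preOP femur Prg2 was at 203, 220.4 and 172 CPM. The lowest normal or preOP library was thus far above the highest delayed or nonunion library. In reads, Prg2 fell from 7384, 2036 and 2273 in normal to 73, 2 and 1 in delayed and 22, 2 and 7 in nonunion.

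Epx was at 120, 31.6 and 34.9 CPM in normal and 78.1, 92.5 and 77.0 CPM in preOP. It was at 1.57, 0.361 and 0.484 CPM in delayed and 0.633, 1.23 and 0.496 CPM in nonunion. Prg3 was at 81.3, 30.5 and 22.1 CPM in normal, at 0.768, 0 and 0.0807 CPM in delayed, and at 0.158, 0 and 0.0414 CPM in nonunion. A library with 0 reads allows up to 3 reads, which is 0.115 to 0.462 CPM after TMM scaling over the 12 libraries (0.462 CPM in nonunion 2), a limit that covers counting error only. Prg3 in preOP femur was at 17.2, 17.8 and 16.3 CPM. Normal 1 was the highest normal library for Prg2, Epx and Prg3, and delayed 1 the highest delayed library for the same genes.

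In delayed against normal hematoma, 3 of the 8 members tested fell and 1 rose, where 7.13% of all 12474 genes were called either way and 4.45% were called lower. The test was edgeR's quasi-likelihood test with Benjamini-Hochberg adjustment over all genes, called at an adjusted p below 0.05. Epx changed by a log2 fold change of -6.26 (SE 0.84, adjusted p = 0.0081, edgeR). Prg2 changed by -7.64 (SE 1.43, adjusted p = 0.020, edgeR) and Prg3 by -7.23 (SE 1.20, adjusted p = 0.0139, edgeR). Fcer1a and Prss34 did not pass the filter on low counts in hematomas and were not tested there. The Epx call held when any one of the 6 libraries was left out. The Prg2 call was lost without normal 1, 2 or 3 and the Prg3 call without normal 1 or delayed 3, with adjusted p up to 0.059 and 0.055 in edgeR.

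In nonunion against normal hematoma, the same 3 genes fell among 8 members tested, where 2.37% of all genes were called and 1.48% were called lower. The log2 fold changes were -6.49 for Epx (SE 0.87, adjusted p = 0.0119, edgeR), -8.63 for Prg2 (SE 1.52, adjusted p = 0.0278, edgeR) and -9.00 for Prg3 (SE 1.37, adjusted p = 0.0179, edgeR). These values share the normal libraries with the delayed comparison. Left-out libraries ended calls here: Epx without nonunion 1 or nonunion 3, Prg2 without any one of the 6 libraries, and Prg3 without any one but nonunion 2. Adjusted p then reached 0.058, 0.093 and 0.070 in edgeR.

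Between nonunion and delayed hematoma, 0 of 8 members were called by edgeR, where 0% of all genes were called. At an unadjusted p below 0.05, edgeR gave 1 member (Cpa3) and 881 genes, which is 7.06% of those tested, and DESeq2 called 0 members and 184 genes. The 95% intervals of the log2 difference ran from -1.94 to 1.49 for Epx, from -3.79 to 1.82 for Prg2 and from -4.77 to 1.23 for Prg3. For 0 of the 8 did the libraries of both groups part without overlap, where 8.91% of all genes did so.

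Against preOP femur, Epx and Prg2 in normal hematoma were not called different. The log2 difference was -0.41 for Epx (95% interval -1.67 to 0.85) and 0.00 for Prg2 (-2.04 to 2.05). For both genes normal 1 was above every preOP library, while normal 2 and normal 3 were below every preOP library. Leaving out single libraries gave log2 values of -1.31 to -0.09 for Epx and -0.80 to 0.32 for Prg2, without a call. Equal levels in both tissues are therefore not shown. For Prg3 the log2 difference was 1.38 (SE 0.78, adjusted p = 0.17, edgeR), with every normal library above every preOP library. Of all genes, 66.9% had groups that did not overlap here. Prg3 was called higher in normal when the fit held only these 2 groups, and when delayed 2 and nonunion 2 were left out together (lowest adjusted p = 0.030, edgeR). In delayed against preOP the log2 values were -6.65 (Epx), -7.62 (Prg2) and -5.82 (Prg3), and in nonunion against preOP -6.84, -8.55 and -7.53, all called by edgeR.

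Levels of different genes can be set beside each other only per length, so TPM is used for that, and ratios cancel the library's total. Prg2 was the highest of the 3 granule genes in normal and preOP, at 366 ± 307 TPM (SD, n = 3) and 282 ± 69.9 TPM (SD, n = 3). Epx was at 30.5 ± 26.4 TPM in normal and 29.3 ± 5.90 TPM in preOP (SD, n = 3). Prg3 was at 71.5 ± 57.9 TPM in normal and 21.0 ± 3.68 TPM in preOP (SD, n = 3). The order of Epx and Prg3 therefore differed between both tissues. Prg3 exceeded Epx by 2.28, 3.15 and 2.06 times in normal 1, 2 and 3, while in preOP 1, 2 and 3 the ratio was 0.762, 0.675 and 0.722. The Prg2 to Epx ratio was 11.9, 14.6 and 10.8 in normal and 10.3, 9.64 and 8.76 in preOP. These ratios were picked after their values were seen and are given as a description, since 3 against 3 libraries cannot give an exact two-sided permutation p below 0.1.

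**Figure D2:**
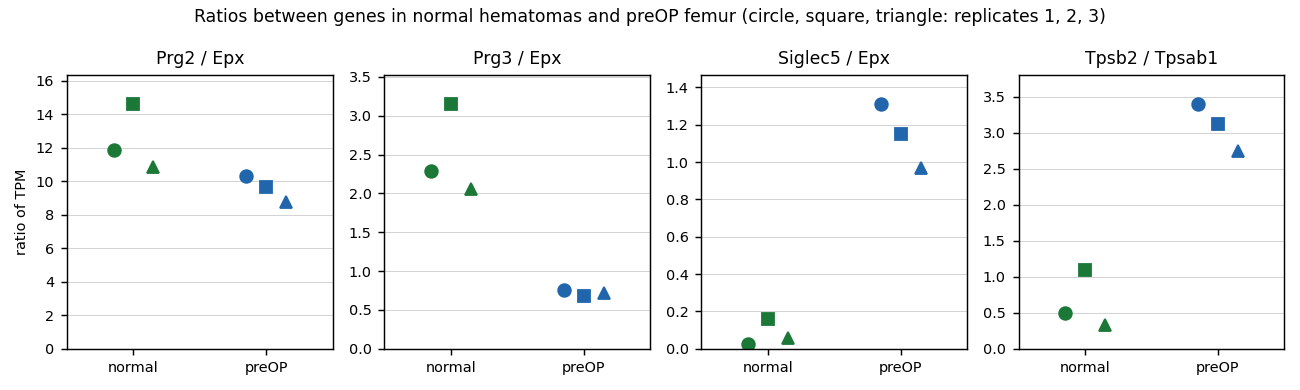
Ratios of TPM between pairs of genes in the 3 normal hematoma libraries and the 3 preOP femur libraries, 1 point per library. The Prg3 to Epx ratio is 2.06 to 3.15 in normal and 0.675 to 0.762 in preOP, the Siglec5 to Epx ratio is at most 0.161 in normal and at least 0.969 in preOP, and the Prg2 to Epx ratio is 10.8 to 14.6 and 8.76 to 10.3.

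Neutrophil precursor transcripts moved with these genes between the hematoma groups, but not between normal hematoma and preOP. Neutrophil granule precursor markers (8 genes of the list matched, among them Elane, Prtn3 and Ctsg) summed to 331 to 2308 CPM in normal, 11.5 to 73.6 CPM in delayed, 6.04 to 16.6 CPM in nonunion and 3823 to 4444 CPM in preOP. Normal 1 and delayed 1 were the highest of their groups for that sum too. Every normal sum was below every preOP sum. In normal against preOP edgeR called 4 of 8 lower (Ctsg, Camp, Ltf and Ngp), where 22.1% of all genes were, while Epx, Prg2 and Prg3 were not called. Ltf passed the filter only in the fit with preOP. In delayed against normal 4 of 7 tested precursor markers fell and in nonunion against normal 5 of 7, by the same edgeR test, where 4.45% and 1.48% of all genes fell. Of 5 mature neutrophil markers, edgeR called 0 in both comparisons, with 2 in delayed and 3 in nonunion at an unadjusted p below 0.05, and DESeq2 called 1 and 2. The 6 genes of that list summed to 1367 to 8943 CPM in normal, 73.9 to 969 CPM in delayed and 56.4 to 644 CPM in nonunion. Macrophage markers were called by edgeR in 0 of 8 cases in both comparisons (at an unadjusted p below 0.05 in 2 and 1, and by DESeq2 in 1 and 0, for delayed and nonunion), at a summed 1212 to 1501 CPM in normal, 995 to 2042 CPM in delayed and 1354 to 2034 CPM in nonunion. Over all 12474 genes, 25.8% and 20.5% had an unadjusted p below 0.05 in delayed and nonunion against normal (edgeR), and DESeq2 called 2033 and 1310. Of 6 osteoblast markers, 5 fell in delayed (4.45% of all genes did) and 4 in nonunion (1.48%) against normal. What part the cells behind these lists have in the eosinophil result was not tested. In bulk RNA fewer cells of a type and less RNA per cell cannot be told apart.

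Siglec5 went the other way from the granule genes. It was at 2.51, 4.65 and 1.89 CPM in normal, at 103, 14.9 and 51.5 CPM in delayed, at 20.8, 64.6 and 21.1 CPM in nonunion, and at 93.4, 97.2 and 68.2 CPM in preOP. No normal library reached the lowest library of any other group. In reads the 3 groups of hematoma held 168 (normal), 4250 (delayed) and 1455 (nonunion). Delayed against normal gave a log2 fold change of 4.25 (SE 0.80, adjusted p = 0.0202, edgeR), where 2.68% of genes were called higher. The call was lost when normal 1, 2 or 3, delayed 1 or delayed 3 was left out (adjusted p up to 0.084, edgeR). Nonunion against normal gave 3.49 (SE 0.77, adjusted p = 0.0519, edgeR), which was not called. It was called with only those 2 groups in the fit, without delayed 2 and nonunion 2, and by DESeq2. Against preOP, normal was lower by a log2 value of -4.84 (SE 0.75, adjusted p = 0.0007, edgeR), while delayed (-0.61, 95% interval -2.00 to 0.78) and nonunion (-1.29, 95% interval -2.70 to 0.13) were not called. Every nonunion library was below every preOP library, and 49.1% of all genes had groups that did not overlap there. Without delayed 2 and nonunion 2, nonunion was called lower than preOP (adjusted p = 0.0043, edgeR).

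Siglec5 and the granule genes therefore differed in which hematomas carried them. In TPM the Siglec5 to Epx ratio was 0.0229, 0.161 and 0.0592 in normal and 1.31, 1.15 and 0.969 in preOP. In delayed hematomas it ran from 45.3 to 117 and in nonunion hematomas from 36.1 to 57.3. Macrophage markers were at a summed 528 to 877 CPM in preOP, below every hematoma. Among hematomas, delayed 1 (2042 CPM) and nonunion 2 (2034 CPM) had the highest macrophage sums and the highest Siglec5 CPM of their groups. Both nonunion 2 values depend on its TMM factor of 0.267, against 1.24 and 1.30 in nonunion 1 and nonunion 3. In reads (419) and TPM (6.89) its Siglec5 was the lowest of its group. The normal libraries, with sums of 1212 to 1501 CPM, had Siglec5 of at most 4.65 CPM, while delayed 2, with 995 CPM, had Siglec5 of 14.9 CPM. The part of macrophages in the Siglec5 values was not tested.

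The IgE receptor chains were high in preOP femur and low in all hematomas. Ms4a2 was at 217, 203 and 126 CPM in preOP, at 8.52, 1.10 and 3.2 CPM in normal, at 1.50, 0.567 and 0.565 CPM in delayed and at 0.158, 6.78 and 0.331 CPM in nonunion. Fcer1a was at 35.9, 23.3 and 8.88 CPM in preOP, at 0.652, 0.245 and 0.586 CPM in normal, at 0.115, 0.0516 and 0.0807 CPM in delayed and at 0, 0.308 and 0.0414 CPM in nonunion. Every preOP library exceeded every hematoma for both genes. Groups did not overlap for 66.9%, 52% and 49.1% of all genes in normal, delayed and nonunion against preOP. Fcer1a had to differ, since it passed the filter only through preOP. The hematoma values rest on few reads, with 30 reads of Fcer1a in normal, 6 in delayed and 3 in nonunion. From pooled reads, Fcer1a was 441-fold lower in nonunion than in preOP (exact binomial 95% interval 151 to 2143), an interval that covers counting error only.

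All 10 members passed the filter in the fit with preOP, 2 of them (Fcer1a and Prss34) only through preOP, where they were high. Those 2 therefore had to differ from preOP, and they are described by their reads and left out of the counts of calls. Of the other 8 members, 5 fell in normal against preOP (Siglec5, Ms4a2, Cpa3, Tpsab1 and Tpsb2) and 0 rose, where 42.6% of all 12846 genes were called, 22.1% lower and 20.5% higher. Ms4a2 changed by a log2 value of -5.41 (SE 1.23, adjusted p = 0.0052, edgeR). The other chain of the receptor, Fcer1g, which many myeloid cells carry, was at 339 to 596 CPM in normal and 147 to 241 CPM in preOP and is not specific to these cells.

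The protease genes followed the IgE receptor. Cpa3 was at 173, 138 and 21.9 CPM in preOP, at 2.26, 2.63 and 3.15 CPM in normal, at 0.537, 0.516 and 0.0807 CPM in delayed and at 0.0791, 19.1 and 0.207 CPM in nonunion. Tpsb2 was at 107, 70.3 and 29.1 CPM in preOP, at 0.501, 1.04 and 0.451 CPM in normal, at 0.422, 0.361 and 0.202 CPM in delayed and at 0.158, 6.47 and 0.0827 CPM in nonunion. Tpsab1 was at 36.5, 26.2 and 12.3 CPM in preOP, at 1.15, 1.10 and 1.58 CPM in normal, at 0.461, 0.206 and 0.282 CPM in delayed and at 0.475, 3.08 and 0.124 CPM in nonunion. Both tryptase genes are close copies, so reads may be split between them, and their relative level is uncertain. Their estimated reads were whole numbers in every library, as were 119 of 120 values of the genes followed here. A split of reads was not tested beyond this. With that limit, the Tpsb2 to Tpsab1 ratio in TPM was 3.4, 3.12 and 2.75 in preOP and 0.502, 1.09 and 0.328 in normal.

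Prss34 had the fewest hematoma reads of the 10 genes. It had 203, 249 and 204 reads in preOP 1, 2 and 3 (a mean of 11.4 ± 1.31 CPM, SD, n = 3). In normal 1, 2 and 3 it had 2, 1 and 1 reads, in delayed 1, 0 and 0, and in nonunion 0 in all 3 libraries. From pooled reads it was 799-fold lower in delayed than in preOP (exact binomial 95% interval 143 to 31599) and at least 48.7-fold lower in nonunion, with each nonunion library set at 3 reads. Between hematoma groups no difference in Prss34 was detectable at this depth.

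In normal against preOP, Cpa3 changed by a log2 value of -5.37 (SE 1.61, adjusted p = 0.020, edgeR), Tpsab1 by -4.28 (SE 0.90, adjusted p = 0.0037, edgeR) and Tpsb2 by -6.70 (SE 1.38, adjusted p = 0.0031, edgeR). The Cpa3 call was lost without normal 1, 2 or 3 or preOP 1 (adjusted p up to 0.066, edgeR). In delayed against preOP 7 of the same 8 members fell, all but Siglec5, where 28.2% of genes were called, 15.6% lower and 12.6% higher. The libraries of those 7 did not overlap between groups, as for 52% of all genes. In nonunion against preOP 6 of the 8 fell, where 28.4% of genes were called, 14.9% lower and 13.5% higher. All 8 had libraries that did not overlap, as did 49.1% of all genes. The other 2 were Siglec5 and Cpa3 (log2 -4.20, SE 1.53, adjusted p = 0.062, edgeR). Cpa3 was called there without nonunion 2 and by DESeq2.

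Among hematomas, 0 of the 4 IgE receptor and protease genes tested were called by edgeR or by DESeq2 in any comparison, and an unadjusted p below 0.05 was found for 1, Cpa3 in nonunion against delayed. Over all genes, 7.06% had such a p there (edgeR). With delayed 2 and nonunion 2 left out together, edgeR called Cpa3 lower than normal in delayed (adjusted p = 0.037, against 0.30 with all libraries) and in nonunion (adjusted p = 0.043, against 0.72). In delayed against normal the log2 values were -2.31 for Ms4a2 (95% interval -5.27 to 0.65), -2.84 for Cpa3 (-6.55 to 0.86), -2.00 for Tpsab1 (-4.21 to 0.21) and -0.997 for Tpsb2 (-4.04 to 2.04). The libraries of Cpa3, Tpsab1 and Tpsb2 did not overlap between normal and delayed, as for 36.5% of all genes. In nonunion against normal, where groups did not overlap for 29.5% of all genes, the log2 values were -1.03 for Ms4a2, 1.13 for Cpa3, -0.29 for Tpsab1 and 1.58 for Tpsb2.

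**Figure D3:**
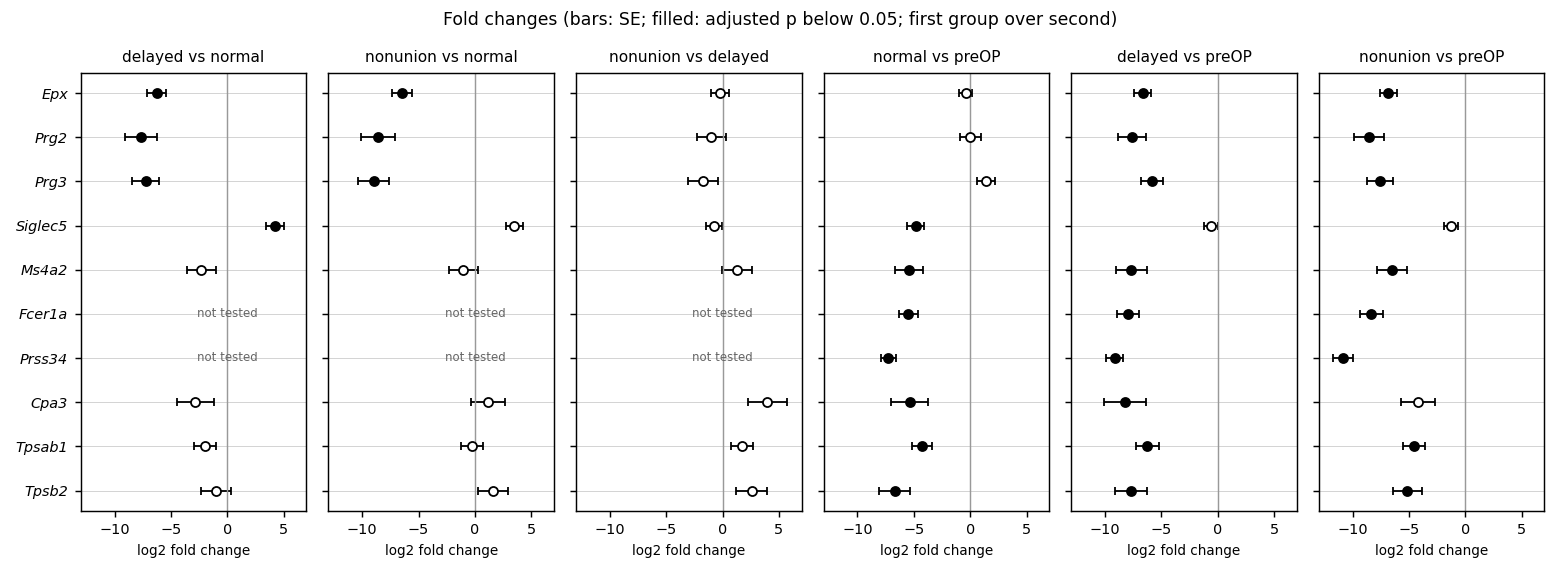
Log2 fold change of each gene in the 6 comparisons, first group over second, with bars of 1 SE and filled points where edgeR's adjusted p is below 0.05. The granule genes are filled in every panel but nonunion vs delayed and normal vs preOP, the IgE receptor and protease genes are filled only against preOP, where Fcer1a and Prss34 had to differ because they passed the filter only through preOP, and the point of Prss34 in nonunion vs preOP depends on the prior count since nonunion has 0 reads.

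A single library carried most of the mast cell protease reads in nonunion. Nonunion 2 held 124 of 131 Cpa3 reads, with 19.1 CPM, while nonunion 1 and 3 had 0.0791 and 0.207 CPM. The same library was the highest of its group in reads, TPM and TMM-scaled CPM for Ms4a2, Fcer1a and Tpsb2, and not for Prg2 or Prg3. For Epx and Siglec5 it was the highest in TMM-scaled CPM but the lowest in reads (8 and 419) and in TPM (0.120 and 6.89), and for Tpsab1 its 0.727 TPM did not exceed nonunion 1. Its adipocyte markers summed to 10818 CPM against 474 and 523 CPM in the other 2, with Adipoq (adiponectin) at 2.31e3 CPM against 0.395 and 4.84 CPM. Cma1, a mast cell chymase, was at 21.7 CPM there against 0.158 and 0.248 CPM. What part the adipocyte RNA and the ribosomal RNA of this library have in these values was not tested. Without nonunion 2, the log2 value of Cpa3 in nonunion against normal was -4.15 in place of 1.13.

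In preOP femur, library 3 was lower than 1 and 2 for the mast cell genes. Cpa3 was at 21.9 CPM in preOP 3 against 173 and 138 CPM, and Ms4a2, Fcer1a, Tpsab1 and Tpsb2 were also lowest there. Prss34, at 12.6 CPM, was not lower, and Epx, at 77.0 CPM, was near preOP 1 at 78.1 CPM. B cell and B precursor markers were also lowest in preOP 3, with a sum of 131 CPM against 242 and 243 CPM, and their part in this was not tested.

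**Figure D4:**
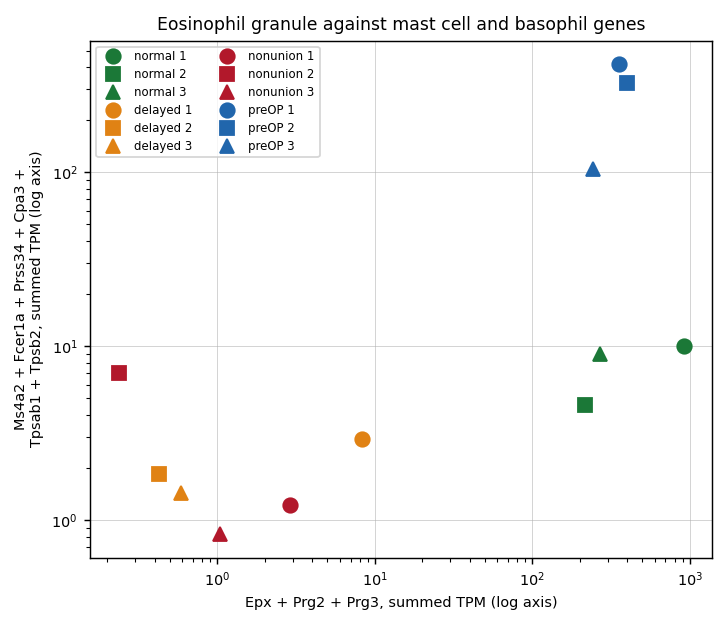
Summed TPM (log axes) of Epx, Prg2 and Prg3 against summed TPM of Ms4a2, Fcer1a, Prss34, Cpa3, Tpsab1 and Tpsb2, 1 point per library. PreOP libraries are high on both axes (244 to 397 and 104 to 417 TPM), normal libraries only on the axis of Epx, Prg2 and Prg3 (216 to 919 and 4.60 to 10.02 TPM), and delayed and nonunion libraries are low on both.

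Summed over genes, the normal and preOP libraries overlapped for the granule genes and not for the IgE receptor and protease genes. The 3 granule genes summed to 919, 216 and 270 TPM in normal 1, 2 and 3 and to 357, 397 and 244 TPM in preOP 1, 2 and 3. The 6 IgE receptor and protease genes summed to 10.02, 4.60 and 9.03 TPM in normal and to 417, 326 and 104 TPM in preOP. In delayed hematomas these sums were 8.32, 0.425 and 0.587 TPM for the granule genes and 2.93, 1.83 and 1.43 TPM for the others. In nonunion hematomas they were 2.91, 0.236 and 1.04 TPM and 1.21, 7.01 and 0.829 TPM. Both nonunion 2 sums are lowered by its ribosomal reads, which take up the TPM total. Not every eosinophil gene stayed with the granule genes, since Siglec5 and, of 5 tested eosinophil genes outside the 10, Ccr3 (an eotaxin receptor) and Alox15 (a lipoxygenase) were lower in normal than in preOP. The log2 value was -3.46 for Ccr3 (SE 1.14, adjusted p = 0.030, edgeR) and -4.65 for Alox15 (SE 1.22, adjusted p = 0.0109, edgeR). The Ccr3 call was lost without normal 2, normal 3, preOP 1 or preOP 2 (adjusted p up to 0.084, edgeR).

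Further genes of these lineages come from lists fixed with earlier results of these data known. Of 4 eosinophil genes outside the 10 tested among hematomas, 1 fell in delayed against normal (4.45% of all genes did), Rnase2 (an eosinophil-associated ribonuclease), with a log2 value of -5.43 (SE 1.21, adjusted p = 0.034, edgeR). In nonunion against normal 0 of the 4 were called by edgeR or DESeq2, and Rnase2 was at -1.52 (adjusted p = 0.43, edgeR) with overlapping libraries. In nonunion against delayed Rnase2 was at 3.91 (adjusted p = 0.49, edgeR), without overlap, as for 8.91% of all genes. DESeq2 called it there, among 184 genes. Of 9 tested mast cell and basophil granule genes 1 fell in that comparison, Mcpt8 (its mouse counterpart marks basophils), with -3.79 (SE 0.86, adjusted p = 0.036, edgeR). Mcpt8 was at 14.4, 2.08 and 6.31 CPM in normal and 0.998, 0.516 and 0.161 CPM in delayed. Of 9 in nonunion against normal, 1 fell (1.48% of all genes did), Mcpt10, with -4.24 (SE 0.77, adjusted p = 0.029, edgeR). The median log2 value of these 9 genes was -2.36 in delayed and -2.47 in nonunion, beside 0.02 and -0.03 over all genes. DESeq2 called 5 of the 9 in delayed and 6 of the 9 in nonunion, where it called 2033 and 1310 of all 12474 genes. Mcpt8, Mcpt9 and Mcpt10 were among those in both comparisons. So was Ndst2, which went the other way, with edgeR log2 values of 0.79 in delayed and 0.91 in nonunion against normal. The Mcpt genes are close copies, so reads may be split between them. Among 8 receptor and transcription factor genes 1 rose in delayed against normal (2.68% of all genes did), Mitf (a mast cell regulator that melanocytes and osteoclasts also use), by 1.02 (SE 0.25, adjusted p = 0.043, edgeR). In nonunion against normal 0 of these 8 were called by edgeR or DESeq2. Of 9 IgE receptor signalling genes, 0 were called by edgeR or DESeq2 in either comparison, with 2 and 1 at an unadjusted p below 0.05. Of 6 lipid mediator genes, 0 were called by edgeR in either comparison, while DESeq2 called 1 (Ltc4s, leukotriene C4 synthase) in each, as did an unadjusted p below 0.05. Over all genes, 25.8% and 20.5% had an unadjusted p below 0.05 in delayed and nonunion against normal (edgeR). The edgeR calls of Rnase2, Mcpt8, Mitf and Mcpt10 between hematomas were lost under a replicate block and when single libraries were left out.

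The signals that recruit and support these cells did not follow the granule genes. Il33, an alarmin that activates mast cells and eosinophils, was at 65.8, 93.1 and 90.4 CPM in normal, at 240, 207 and 274 CPM in delayed and at 107, 277 and 200 CPM in nonunion. It was higher in delayed than in normal by 1.52 on the log2 scale (SE 0.36, adjusted p = 0.039, edgeR), the only edgeR call among 6 tested cytokine and eotaxin genes, where 2.68% of all genes were called higher. This call too was lost under a replicate block and in 5 of 6 fits with 1 library left out. In nonunion against normal 0 of 6 were called by edgeR, while an unadjusted p below 0.05 and DESeq2 each gave 2 (Ccl11 and Il33). Of all genes there, 20.5% had an unadjusted p below 0.05 (edgeR) and DESeq2 called 1310. Ccl24, an eotaxin, was at 9.28 to 20.02 CPM in normal, 9.85 to 32.2 CPM in delayed and 4.26 to 24.05 CPM in nonunion, with overlapping libraries. Ccl11, another eotaxin, was at 22.2 CPM in nonunion 2 and 5.75 CPM in nonunion 3, and at most at 1.44 CPM in the other hematomas. Il5 had 0 reads in all 12 libraries. Il4 had 0 reads in the 9 hematomas and 2, 3 and 2 reads in preOP. Ccl11, Ccl24, Il4, Il5 and Ltc4s were picked for mention after their values were seen.

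Against preOP, most of the wider mast cell and basophil granule list was lower. In normal 7 of 9 tested mast cell and basophil granule genes were lower, with the smallest adjusted p for Mcpt10 (-5.69, SE 0.58, adjusted p = 0.00011, edgeR) and Mcpt8 (-5.81, SE 0.73, adjusted p = 0.00024, edgeR). In delayed 7 of 9 and in nonunion 8 of 9 were lower. Of all genes, 22.1%, 15.6% and 14.9% were called lower in normal, delayed and nonunion against preOP. Mcpt8 was at 470, 469 and 342 CPM in preOP. Kit (the stem cell factor receptor), Gata1 and Gata2 were lower in all 3 hematoma groups, with Gata2 log2 values of -3.70, -5.34 and -3.18 in normal, delayed and nonunion. These 3 genes are also used by blood progenitors and, in the case of Gata1, by erythroid cells. Erythroid markers were called lower by edgeR in 5 of 5 cases in each group, while DESeq2 called 4 of 5. The part of these cells in the calls of Kit, Gata1 and Gata2 was not tested. Il33 and Ccl7 (a chemokine for monocytes and eosinophils) were higher than preOP in every hematoma group, with log2 values of 1.81, 3.34 and 3.04 for Il33 and 7.74, 8.42 and 7.95 for Ccl7.

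The genes whose levels followed Epx most closely over the 12 libraries were mostly neutrophil and bone genes. Likeness was the root mean square difference of log2 CPM after each gene was centred, over 10149 genes. RatNP-3b was closest to Epx (0.75), then Np4 (0.78), Bglap (0.84), Defa5 (0.86) and Prtn3 (0.90). RatNP-3b, Np4 and Defa5 are defensins and Prtn3 is proteinase 3, all neutrophil granule genes, and Bglap encodes osteocalcin of osteoblasts. For Cpa3 the closest were Mcpt1l1 (0.89), Cma1 (0.95), Dnase1l3 (1.13) and Cd79b (1.47), followed by a transcript with no symbol. Mcpt1l1 was at a mean of 389 CPM in preOP and 15.3 CPM in nonunion.

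**Figure D5:**
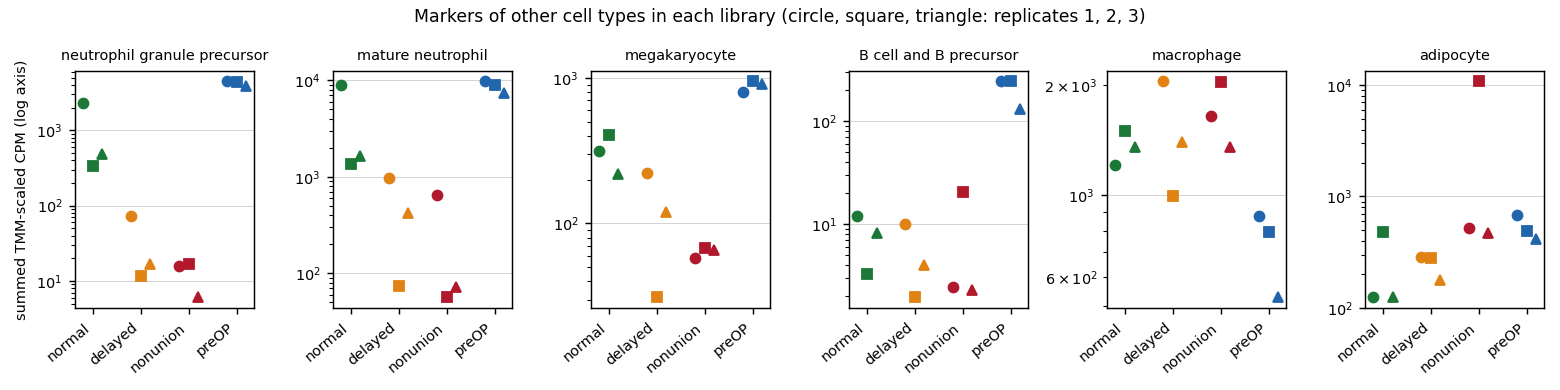
Summed TMM-scaled CPM (log axes, each with its own range) of marker lists of 6 other cell types in the 12 libraries, with the shape giving the replicate. Neutrophil precursor markers are high in preOP (3823 to 4444 CPM) and normal (331 to 2308 CPM) and at most 73.6 CPM in delayed and nonunion, macrophage markers are higher in every hematoma than in preOP, and adipocyte markers reach 10818 CPM in nonunion 2.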

How the data were processed

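RNA was sequenced from 9 hematoma and 3 femur libraries of the rat, from 1 ug of total RNA with the Illumina TruSeq RNA kit after Trizol extraction, per the labels' protocols. Reads were prepared with bcl2fastq 1.8.4, FastQC and Trimmomatic and transcripts quantified with Salmon against rn6, per the submitters' processing notes. The deposited files give, per the file headers, estimated counts of reads per transcript (unscaled), TPM (per 1e6, after division by effective length) and lengths in bases. TPM served only for levels and ratios between genes. Each file lists 18321 transcripts, of which 17367 matched 16425 symbols in RefSeq (GRCr8, names only), and the other 954 were kept as single features.

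Estimated counts were summed by symbol and then rounded. Tests used edgeR 4.0.16 (quasi-likelihood, TMM, filterByExpr) in R 4.3.3, two-sided, with Benjamini-Hochberg adjustment over all genes and calls at an adjusted p below 0.05. Comparisons among hematomas came from 1 fit of 9 libraries (12474 genes, 6 residual degrees of freedom), and those with preOP from 1 fit of 12 libraries (12846 genes, 8 residual degrees of freedom). The SE is the absolute log2 fold change over the square root of F, and intervals are 95%. CPM values are TMM-scaled in the 12-library fit. Tested on simulated data for delayed against normal (12474 genes), the fit recovered 61.8% of planted changes of 8-fold, but 16.9% at 4-fold and 1.64% at 2-fold.

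The 10 genes, the gene lists and the tests were chosen with earlier results of these data known. All 10 genes are named, with called genes of each list (at most 4 per list and comparison) and up to 2 abundant uncalled ones. The 5 genes most like Epx and Cpa3 are also named, among genes outside the 10 with a mean of at least 5 CPM. Of the 10 genes, 8 passed the filter in hematomas. Alternatives were DESeq2 size factors, no filter, a replicate block, DESeq2 1.42.0, only the groups compared, effective lengths as offsets, and libraries left out.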

Additional observations from a re-analysis of the deposited data

How the results depend on the processing

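Depth limits Fcer1a and Prss34 in hematomas, where groups held 30 reads or fewer of each. Over the 54 fold changes of the 10 genes, 695 alternative values were computed: 630 kept their direction and side of the threshold, 27 lost a call, 11 gained one and 27 changed sign, and an adjusted p from DESeq2 was missing in 3 cases. The cause of these changes was not tested.

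The number of the 10 genes called in nonunion against normal was 3 and rose to 5 without delayed 2 and nonunion 2. Leaving out 1 library gave 1 to 4 in delayed against normal, 0 to 2 in nonunion against normal and 0 in nonunion against delayed. Against preOP it gave 6 to 7 in normal, 9 in delayed and 8 to 9 in nonunion. Those counts against preOP include Fcer1a and Prss34, which had to differ there because they passed the filter only through preOP. With all libraries, 42.6%, 28.2% and 28.4% of all genes were called in normal, delayed and nonunion against preOP. The count over all genes for delayed against normal was 889, and it was 433 with the replicate block, 2056 without delayed 2 and nonunion 2, 2033 with DESeq2 and 175 to 726 with 1 library left out. For nonunion against normal it was 296, and 148 with the block, 1310 with DESeq2 and 23 to 158 with 1 library left out. For nonunion against delayed it was 0, and 60 without delayed 2 and nonunion 2, 184 with DESeq2 and 0 to 1 with 1 left out. Against preOP, delayed gave 3622 (2292 to 4030 with 1 left out) and nonunion 3649 (2334 to 4221).

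Whether shared replicate numbers pair the libraries is not known. Correlations of deviations within pairs ran from -0.18 to 0.19. Each library correlated best with its own number (6 of 6) only in nonunion against delayed, and 4 of 6 did so in delayed against preOP. With 3 libraries per group these correlations cannot decide whether libraries are paired. With the replicate block, 4, 3 and 0 of the 10 genes were called among hematomas and 7, 9 and 9 against preOP. The counts against preOP again include Fcer1a and Prss34. The block turned the sign of Cpa3 in nonunion against normal (-1.20), of Epx in nonunion against delayed (0.049) and of Prg2 in normal against preOP (-0.46).

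Without delayed 2 and nonunion 2, log2 values turned to -4.17 (Cpa3) and -2.38 (Tpsb2) in nonunion against normal, to -2.11 (Ms4a2), -1.15 (Cpa3), -0.37 (Tpsab1) and -1.39 (Tpsb2) in nonunion against delayed, and to 0.053 (Siglec5) in delayed against preOP. Effective lengths as offsets turned Prg2 in normal against preOP to -0.052. With 1 library left out, signs turned within these ranges in nonunion against delayed: Cpa3 -1.41 to 4.57, Epx -0.60 to 0.71, Ms4a2 -1.88 to 1.92, Prg2 -1.79 to 2.78, Prg3 -3.03 to 0.82, Siglec5 -1.49 to 0.0064, Tpsab1 -0.15 to 2.31 and Tpsb2 -1.45 to 3.19. In nonunion against normal these were Cpa3 -4.15 to 1.72, Tpsab1 -2.05 to 0.31 and Tpsb2 -2.36 to 2.19. Against preOP they were Prg2 -0.80 to 0.32 in normal and Siglec5 -1.18 to 0.071 in delayed.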
